A study of Homo sapiens with 6 samples.

Results

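The translation initiation and elongation factors of the cytosol were followed in A549 cells, a line of human lung adenocarcinoma, after an siRNA against HNRNPD. The factors were selected by gene name, with earlier results of these data known. All genes of the count table whose names begin with EIF1 to EIF6 or with EEF1 or EEF2 were taken, apart from the EIF2AK kinases, the EIF4EBP repressors, EIF4ENIF1, EIF1AY, hyphenated names and names of pseudogenes, which left 57 of 56303 rows. The HNRNPD siRNA group had 3 libraries and the negative-control siRNA group had 3 libraries, all from A549 cells with no other treatment given in the labels. The labels name neither the siRNA sequences nor the number of cultures, so p-values reflect only how far these libraries scatter, and that scatter may be technical. HNRNPD encodes AUF1, a protein that binds AU-rich mRNAs.

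Initiation brings the small ribosomal subunit, the initiator tRNA and the capped mRNA together. eIF2 carries the initiator tRNA and is recharged by eIF2B, eIF3 is a scaffold on the small subunit, and eIF4F (cap-binding eIF4E, scaffold eIF4G and helicase eIF4A) recruits the mRNA. In elongation, eEF1A delivers aminoacyl-tRNAs and is recharged by the eEF1B subunits, and eEF2 moves the ribosome along. Many mRNAs of this machinery begin with a C and a run of pyrimidines, the 5′ terminal oligopyrimidine (TOP) tract, through which mTOR and LARP1 control their translation.

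The libraries held 37151094 to 43005090 counts, and values are given as counts per 1000000 (CPM) on totals scaled by the TMM method. HNRNPD itself had 177, 163 and 167 CPM in the HNRNPD siRNA libraries, against 965, 943 and 942 CPM in the control libraries (log2 fold change -2.49, SE 0.06, edgeR adjusted p = 1.38e-15), which fits the labels in every library. All 9 A549 markers looked up (keratins and other epithelial genes, and NQO1, AKR1B10, AKR1C1 and ALDH1A1) were detected. Their group means ran from 16.6 to 5161 CPM. Of the 9, 7 were called lower, EPCAM higher and CDH1 neither. Of all tested genes, 27.8% were called lower and 28.4% higher, or 36.8% and 30.5% of those averaging 5 CPM or more. For 6 genes that mark leukocytes, endothelium or fibroblasts (PTPRC, CD3E, PECAM1, COL1A1 and COL3A1) or are deleted in A549 (CDKN2A), levels summed to 6.64 to 8.14 CPM in HNRNPD siRNA libraries and 5.08 to 6.08 CPM in control libraries. Only COL1A1, a fibroblast collagen, was called, at 6.67 CPM after HNRNPD siRNA and 5.14 CPM in controls. PTPRC had no count in any HNRNPD siRNA library. CDKN2A had 16, 0 and 6 counts in HNRNPD siRNA libraries and 4, 3 and 3 in control libraries, and was below the filter on low counts. COL3A1 had 0.423 CPM after HNRNPD siRNA and 0.204 CPM in controls. Its groups were separate, but it was not called (edgeR adjusted p = 0.0557). The part of these markers in the results below was not tested.

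More of the factors fell than rose. Of 57 factors, 56 passed the filter on low counts. Of those, 12 were higher and 29 lower after HNRNPD siRNA, where a call is an edgeR quasi-likelihood adjusted p under 0.05, and 15 were not called. These are 21.4% higher and 51.8% lower, beside 28.4% higher and 27.8% lower among all 20465 genes tested. Most of the factors are abundant, and for genes averaging 5 CPM or more the background was 30.5% higher and 36.8% lower, against 11 higher and 28 lower of 51 factors. The median log2 fold change was -0.20 over the factors and 0.01 over all genes tested (-0.05 at 5 CPM or more). No called factor changed by 2-fold or more, while 16.3% of all tested genes did. Among genes averaging 5 CPM or more, 1070 of 11334 did. The called folds ran from 1.12 to 1.98. The 3 libraries of one group lay wholly above those of the other for 10 factors that were higher and 31 that were lower after HNRNPD siRNA, against 31.7% and 30.9% of all tested genes. At 5 CPM or more, 3713 genes were separate and higher and 4480 separate and lower, of 11334. Each library pools many cells, so fewer cells with an mRNA and less of it per cell cannot be told apart. Since libraries are scaled to a common total, all changes are relative, and a change in total mRNA per cell would not be seen.

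**Figure D1:**
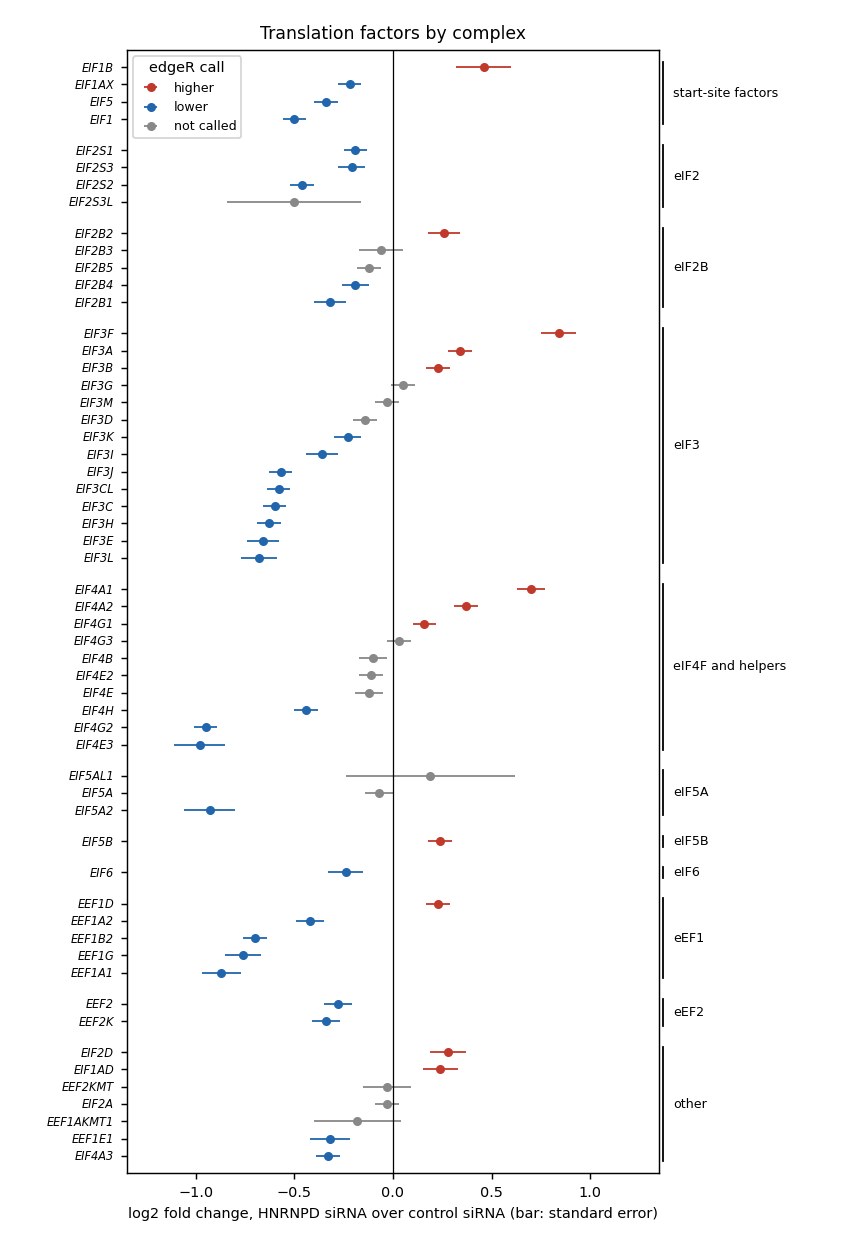
Log2 fold change of the 56 tested translation factors, HNRNPD siRNA over control siRNA, with genes grouped by complex, points as edgeR estimates and bars as standard errors. Red points are called higher (12), blue points called lower (29) and grey points not called (15), and every called point lies between -0.98 and 0.84.

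The complexes differed in how evenly their genes moved. In eEF1, 4 of 5 genes were lower and the median log2 fold change was -0.70. In the ternary complex factor eIF2, 3 of 4 were lower with a median of -0.34, or -0.18 when genes needed at least 1 CPM in 3 libraries, which drops the scarce EIF2S3L. In the start-site factors 3 of 4 were lower with a median of -0.28. eIF3 was split, with 8 of 14 lower and 3 higher (median -0.30). eIF4F with its helpers had 3 lower and 3 higher of 10, or 30% each (median -0.11, or -0.06 without HNRNPD siRNA replicate 3). That is near the share of all tested genes, of which 27.8% were lower and 28.4% higher. The counts by complex describe its genes, which are not replicates, and differences between complexes were not tested.

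The RefSeq transcription start was looked up because a TOP tract would be read there. RefSeq windows (GRCh38.p14) were found for 45 of the 57 factors. The other 12 include EIF3L, EIF3E, EIF3H, EIF3CL, EIF2S2 and EEF1A2, which were called lower, and EIF3A and EEF1D, which were called higher. EIF3G, EIF2S3L, EEF1AKMT1 and EEF2KMT, which were not called, had no window either. The comparison by tract leaves all of these out. A C at the start followed by at least 4 bases that are each C or T, on the gene's strand, was present for 12 of the 45 (26.7%), and for 5.14% of the 27305 genes with a window. A gene with several RefSeq starts was counted if 1 of them had the tract, which matters for EEF1B2, whose other start has none. The sequences below, from 10 bases before the start to 20 from it, are those of elongation factors that fell, of factors with the same kind of start that rose or were not called, and of strongly changed factors with no such tract. Capitals mark the tract.
EEF1A1: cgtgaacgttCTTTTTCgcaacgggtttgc
EEF1B2: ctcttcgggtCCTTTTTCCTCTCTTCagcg
EEF2: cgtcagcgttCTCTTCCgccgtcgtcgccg
EIF3F: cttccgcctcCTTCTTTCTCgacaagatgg
EIF4A2: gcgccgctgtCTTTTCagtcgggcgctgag
EIF4B: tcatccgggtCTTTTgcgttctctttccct
EEF1G: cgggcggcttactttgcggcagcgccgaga
EIF4A1: ggcactccgccctagtttctaaggatcatg

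The windows lie at chr6:73521013-73521042 (minus strand) for EEF1A1, chr2:206159885-206159914 (plus) for EEF1B2, chr19:3985444-3985473 (minus) for EEF2 and chr11:7987327-7987356 (plus) for EIF3F. Those of EIF4A2 and EIF4B are chr3:186783567-186783596 and chr12:53006446-53006475, both plus. Those of EEF1G and EIF4A1 are chr11:62573872-62573901 (minus) and chr17:7572815-7572844 (plus). The factors with the tract did not move together. Of the 12, 5 fell (EEF1A1, EEF1B2, EEF2, EIF3K and EIF2S3), 3 rose (EIF3F, EIF4A2 and EIF2D) and 4 were not called (EIF4B, EIF2A, EIF3D and EIF3M). Of the 32 tested factors whose windows lack it, 18 fell, 7 rose and 7 were not called, so those were mixed as well. The median log2 fold change was -0.12 with the tract and -0.20 without it, and over all tested genes 28.4% were higher and 27.8% lower. The absence of the tract says only that these letters are not at that RefSeq start.

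Among elongation factors, EEF1A1, EEF1G and EEF1B2 fell most, and EEF1D rose. EEF1A1 (chr6:73515750-73523797, minus strand) encodes the main eEF1A. Its level was 1030.4, 999 and 766 CPM in the HNRNPD siRNA libraries, against 1823, 1609 and 1689.7 CPM in the control libraries. The groups stood well apart, and HNRNPD siRNA replicate 3 was the lowest library. The log2 fold change was -0.87 (SE 0.10, edgeR adjusted p = 2.28e-05). The table also has 39 rows named as EEF1A1 pseudogenes, which held 10.32% of the summed counts after HNRNPD siRNA and 10.15% in controls. The sources used here do not say how a read matching more than 1 place was handled.

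EEF1G encodes eEF1B gamma, a structural subunit of the exchange complex. It had 567, 536 and 428 CPM in HNRNPD siRNA libraries and 913, 828 and 856 CPM in control libraries, again lowest in HNRNPD siRNA replicate 3 (log2 fold change -0.76, SE 0.09, edgeR adjusted p = 6.45e-06). Of its exonic bases, 99.9% are shared with the row RP11-864I4.1 on the same strand, whose log2 fold change was -0.74, so those rows are not separate measurements. EEF1B2, the exchange subunit eEF1B alpha, had 249, 249 and 239 CPM after HNRNPD siRNA, against 429, 386 and 379 CPM in controls. Its libraries were tight within each group (log2 fold change -0.70, SE 0.06, edgeR adjusted p = 1.91e-08).

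EEF1A2, the paralog that takes over in muscle and neurons, was far less abundant. Its levels were 29.2, 29.4 and 28.8 CPM after HNRNPD siRNA, and 40.5, 38.4 and 37.9 CPM in controls (log2 fold change -0.42, SE 0.07, edgeR adjusted p = 2.64e-05). EEF1D, a further exchange subunit (eEF1B delta), was the exception within eEF1. It had 309, 300.2 and 333 CPM in HNRNPD siRNA libraries, against 279.5, 263 and 262 CPM in control libraries (log2 fold change 0.23, SE 0.06, edgeR adjusted p = 0.00309). It shares 34.0% of its exonic bases with other rows, most with one on the opposite strand that was itself called higher.

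Both genes of the eEF2 group were lower. EEF2, the translocase, had 677, 689 and 608 CPM after HNRNPD siRNA and 852, 793 and 753 CPM in controls (log2 fold change -0.28, SE 0.07, edgeR adjusted p = 0.00133). The kinase that inactivates it, EEF2K, fell by a similar step, to 27.4 ± 2.43 CPM after HNRNPD siRNA, against 34.7 ± 0.352 CPM in controls (SD, n = 3 each). Summed over the 5 eEF1 genes, levels were 2185, 2114 and 1794 CPM in HNRNPD siRNA libraries and 3484, 3124 and 3225 CPM in control libraries, which is 0.203% and 0.328% of all counts on average.

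**Figure D2:**
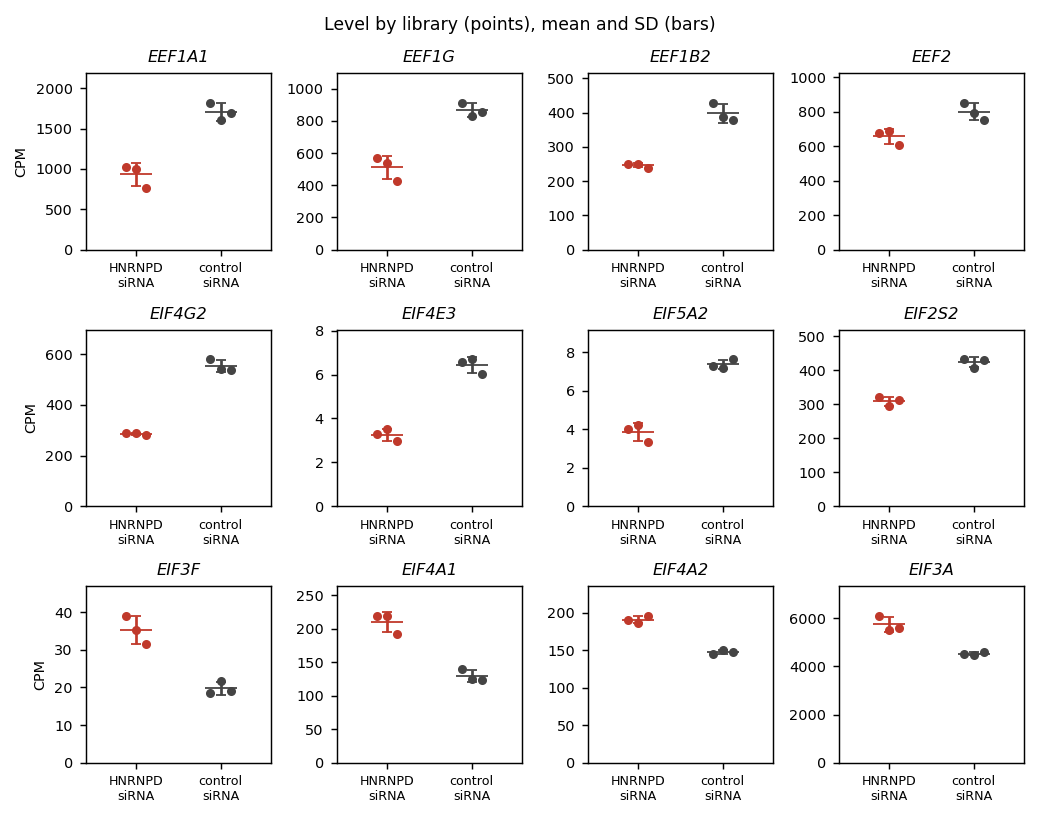
Level in CPM of 12 translation factors, with 1 point per library, a horizontal bar for the mean and whiskers for the SD of 3 libraries (HNRNPD siRNA in red, control siRNA in grey, each axis starting at 0). EEF1A1, EEF1G, EEF1B2, EEF2, EIF4G2, EIF4E3, EIF5A2 and EIF2S2 are lower after HNRNPD siRNA, and EIF3F, EIF4A1, EIF4A2 and EIF3A higher. All 12 were picked from called factors, so their separate groups are not a further result. Of all tested genes, 31.7% were separate and higher and 30.9% separate and lower.

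EIF4E3 and EIF4G2, relatives of the cap-binding protein and of its scaffold, had the lowest log2 fold changes of the tested factors, while EIF4E itself was not called and both eIF4A helicase genes were higher. EIF4G2 (chr11:10797050-10809110, minus strand) encodes DAP5, an eIF4G relative that does not bind eIF4E. It had 288, 289 and 281 CPM in HNRNPD siRNA libraries, against 581, 544 and 537 CPM in control libraries. The spread within groups was small beside that gap (log2 fold change -0.95, SE 0.06, edgeR adjusted p = 1.28e-10). The canonical scaffold EIF4G1 had 772, 762 and 775 CPM after HNRNPD siRNA and 691, 703 and 667 CPM in controls, or 0.16 higher on the log2 scale (SE 0.06, edgeR adjusted p = 0.0191). That call was lost without control replicate 1, 2 or 3 (edgeR adjusted p = 0.0643, 0.0539 and 0.147), and over 17 alternatives the p ran from 0.00761 to 0.147. EIF4G3, the third scaffold, had 227, 233 and 222 CPM after HNRNPD siRNA and 221, 229 and 217 CPM in controls, and was not called (log2 fold change 0.03, SE 0.06, edgeR adjusted p = 0.652).

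Of the cap-binding proteins, the rare form was the one called. EIF4E3 (chr3:71675416-71754773, minus strand), an eIF4E relative of low abundance here, had 3.27, 3.51 and 2.97 CPM after HNRNPD siRNA, against 6.57, 6.7 and 6.03 CPM in controls. Every HNRNPD siRNA library was below every control library (log2 fold change -0.98, SE 0.13, edgeR adjusted p = 4.27e-06). EIF4E itself had 54.4, 48 and 49.2 CPM in HNRNPD siRNA libraries and 56.5, 51.7 and 56 CPM in control libraries, which overlap (log2 fold change -0.12, SE 0.07, edgeR adjusted p = 0.153). EIF4E2, which encodes the repressive cap-binding protein 4EHP, had 122, 116 and 114 CPM after HNRNPD siRNA and 126, 125 and 131 CPM in controls (log2 fold change -0.11, SE 0.06, edgeR adjusted p = 0.101). EIF4E1B, a germline form, had no count in the HNRNPD siRNA libraries and 1 count in control replicate 2, and could not be tested. A count of 0 allows up to 3 counts, or 0.07 to 0.0825 CPM depending on the library.

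Both eIF4A helicases rose. EIF4A1 (chr17:7572706-7579005, plus strand) had 219.7, 219 and 193 CPM in HNRNPD siRNA libraries, against 140.0, 125 and 124 CPM in control libraries (log2 fold change 0.70, SE 0.07, edgeR adjusted p = 6.99e-08). It shares 48.6% of its exonic bases with other rows, most with RP11-186B7.4 on the same strand, which was 1.1 higher on the log2 scale. The split of reads between those rows is uncertain. EIF4A2 (chr3:186783205-186789900, plus strand) had 190.0, 186 and 196 CPM after HNRNPD siRNA and 145, 150.3 and 147 CPM in controls (log2 fold change 0.37, SE 0.06, edgeR adjusted p = 1.65e-05). Of its exonic bases, 17.9% are shared, most with a row on the opposite strand that was also called higher.

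The helpers of the helicase did not follow it. EIF4H fell to 363 ± 11.5 CPM after HNRNPD siRNA, against 493 ± 30.2 CPM in controls (SD, n = 3 each, log2 fold change -0.44, SE 0.06, edgeR adjusted p = 6.1e-06). EIF4B, at 643 ± 66.8 CPM after HNRNPD siRNA and 688 ± 25.1 CPM in controls (SD, n = 3 each), was not called (edgeR adjusted p = 0.246). EIF4A3, a related helicase that belongs to the exon junction complex, was lower, with 33.3 CPM after HNRNPD siRNA and 41.9 CPM in controls on average (log2 fold change -0.33, SE 0.06).

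eIF3, the largest initiation factor, showed opposite changes among its subunits. EIF3F (chr11:7970251-8001862, plus strand), a subunit with an MPN domain, had the largest rise of all the factors. It had 39.1, 35.4 and 31.6 CPM in HNRNPD siRNA libraries, against 18.5, 21.7 and 19.1 CPM in control libraries (log2 fold change 0.84, SE 0.09, edgeR adjusted p = 1.72e-07). EIF3A (chr10:119033670-119080823, minus strand), the scaffold of the complex, had 6108, 5529 and 5601 CPM after HNRNPD siRNA and 4533, 4465 and 4596 CPM in controls. Its groups were separate (log2 fold change 0.34, SE 0.06, edgeR adjusted p = 0.000163). The scaffold partner EIF3B was also higher, at 190.4 ± 4.95 CPM after HNRNPD siRNA and 163 ± 11 CPM in controls (SD, n = 3 each). Its call was lost without control replicate 3 (edgeR adjusted p = 0.07, the highest of 17 alternatives, with 0.00164 the lowest).

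The 8 eIF3 rows that fell were EIF3L, EIF3E, EIF3H, EIF3C, EIF3CL, EIF3J, EIF3I and EIF3K, at log2 fold changes from -0.68 to -0.23. EIF3L, which pairs with EIF3K, had 49.2 ± 6.45 CPM after HNRNPD siRNA and 78.7 ± 6.51 CPM in controls (SD, n = 3 each), and shares 51.8% of its exonic bases with other rows. EIF3H, which like EIF3F has an MPN domain, and EIF3E went the other way from EIF3F. EIF3E had 60.7, 58.9 and 47.4 CPM in HNRNPD siRNA libraries and 90, 84.1 and 90.4 CPM in control libraries (log2 fold change -0.66, SE 0.08, edgeR adjusted p = 2.32e-06). EIF3H had 64.3, 64.3 and 56.8 CPM after HNRNPD siRNA and 96.1, 94.9 and 95.5 CPM in controls (log2 fold change -0.63, SE 0.06, edgeR adjusted p = 1.1e-07). EIF3C and EIF3CL are near-identical copies on chromosome 16 and had log2 fold changes of -0.60 and -0.58, with the split of reads between them uncertain. EIF3D, EIF3G and EIF3M were not called (log2 fold changes -0.14, 0.05 and -0.03).

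Because of EIF3A, the summed level of eIF3 ran against the count of its genes. All 14 rows together summed to 7982, 7429 and 7385 CPM in HNRNPD siRNA libraries and 7071, 6885 and 6959.8 CPM in control libraries. Without EIF3A the sums were 1876, 1900 and 1785 CPM after HNRNPD siRNA, against 2537, 2420 and 2365 CPM in controls. Per 1000 bases of exon, EIF3A had the highest mean level of the tested factors, 809 CPM after HNRNPD siRNA and 638 CPM in controls. The next eIF3 row, EIF3CL, had 199.9 CPM per 1000 bases after HNRNPD siRNA and 298 in controls. EIF3F had the lowest of eIF3, 3.75 CPM per 1000 bases after HNRNPD siRNA and 2.1 in controls. Why the EIF3A and EIF3F rows lie so far from the other subunits of the same complex was not tested. The deposited lengths were used as they stand, whichever exons these cells use.

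**Figure D3:**
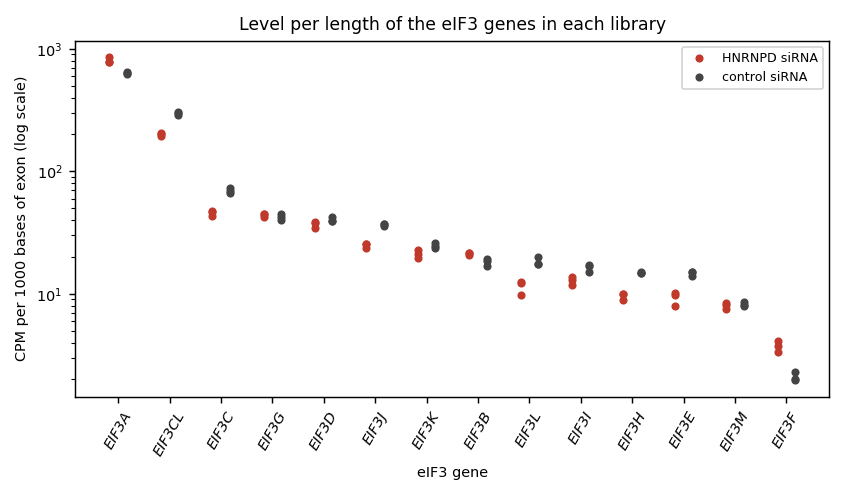
Level of the 14 eIF3 genes in CPM per 1000 bases of exon on a log axis, with 1 point per library (HNRNPD siRNA in red, control siRNA in grey). EIF3A is highest, at a mean of 809 after HNRNPD siRNA and 638 in controls, and EIF3F lowest, at 3.75 after HNRNPD siRNA and 2.1 in controls, while EIF3C, EIF3CL, EIF3J, EIF3L, EIF3H and EIF3E sit lower after HNRNPD siRNA.

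The factors that find the start codon and carry the initiator tRNA were mostly lower by small steps. EIF1, which guards start codon choice, had 41, 39.9 and 39.9 CPM in HNRNPD siRNA libraries, against 58.9, 56.6 and 55.8 CPM in control libraries (log2 fold change -0.50, SE 0.06, edgeR adjusted p = 1.29e-06). Its rare paralog EIF1B rose, with 4.51, 4.7 and 4.32 CPM after HNRNPD siRNA and 2.91, 3.69 and 3.24 CPM in controls (log2 fold change 0.46, SE 0.14, edgeR adjusted p = 0.0114). The call of EIF1B was lost without control replicate 1 (edgeR adjusted p = 0.0643, the highest of 17 alternatives, with 0.00762 the lowest). EIF5, the GTPase-activating protein of eIF2, had 114, 111 and 119.9 CPM after HNRNPD siRNA and 152, 138 and 148 CPM in controls (log2 fold change -0.34, SE 0.06, edgeR adjusted p = 8.74e-05). EIF1AX, the scanning factor eIF1A, was lower as well (log2 fold change -0.22, SE 0.06).

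All 3 genes of the eIF2 heterotrimer were lower. EIF2S2, the beta subunit, had 319.9, 294 and 312 CPM in HNRNPD siRNA libraries, against 432, 407 and 431 CPM in control libraries (log2 fold change -0.46, SE 0.06, edgeR adjusted p = 2.42e-06). EIF2S1, the alpha subunit that stress kinases phosphorylate, and EIF2S3, the gamma subunit, had log2 fold changes of -0.19 (SE 0.06) and -0.21 (SE 0.07). Both calls were lost without control replicate 1 (edgeR adjusted p = 0.0625 and 0.0655), and that of EIF2S1 also without HNRNPD siRNA replicate 2 (edgeR adjusted p = 0.0561). The lowest p over 17 alternatives was 0.00259 for EIF2S1 and 0.000882 for EIF2S3. EIF2S3L, a copy of the gamma gene, stayed under 1 CPM in every library and was not called.

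The exchange factor eIF2B moved little and in both directions. EIF2B1 was lower, with a mean of 18.1 CPM after HNRNPD siRNA and 22.5 CPM in controls (log2 fold change -0.32, SE 0.08). EIF2B2 was higher, with a mean of 21.7 CPM after HNRNPD siRNA and 18.1 CPM in controls (log2 fold change 0.26, SE 0.08). Of their exonic bases, EIF2B1 shares 15.6% and EIF2B2 23.6% with other rows. EIF2B4, the most abundant subunit gene, had 93.4, 95.3 and 106 CPM in HNRNPD siRNA libraries and 108, 105 and 124 CPM in control libraries, which overlap. It was called lower (log2 fold change -0.19, SE 0.07, edgeR adjusted p = 0.0259). The call was lost without HNRNPD siRNA replicate 1 or 2 (edgeR adjusted p = 0.0838 and 0.0896) or control replicate 3 (0.172), and over 17 alternatives the p ran from 0.000546 to 0.172. The catalytic subunit EIF2B5 and EIF2B3 were not called, at log2 fold changes of -0.12 and -0.06.

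**Figure D4:**
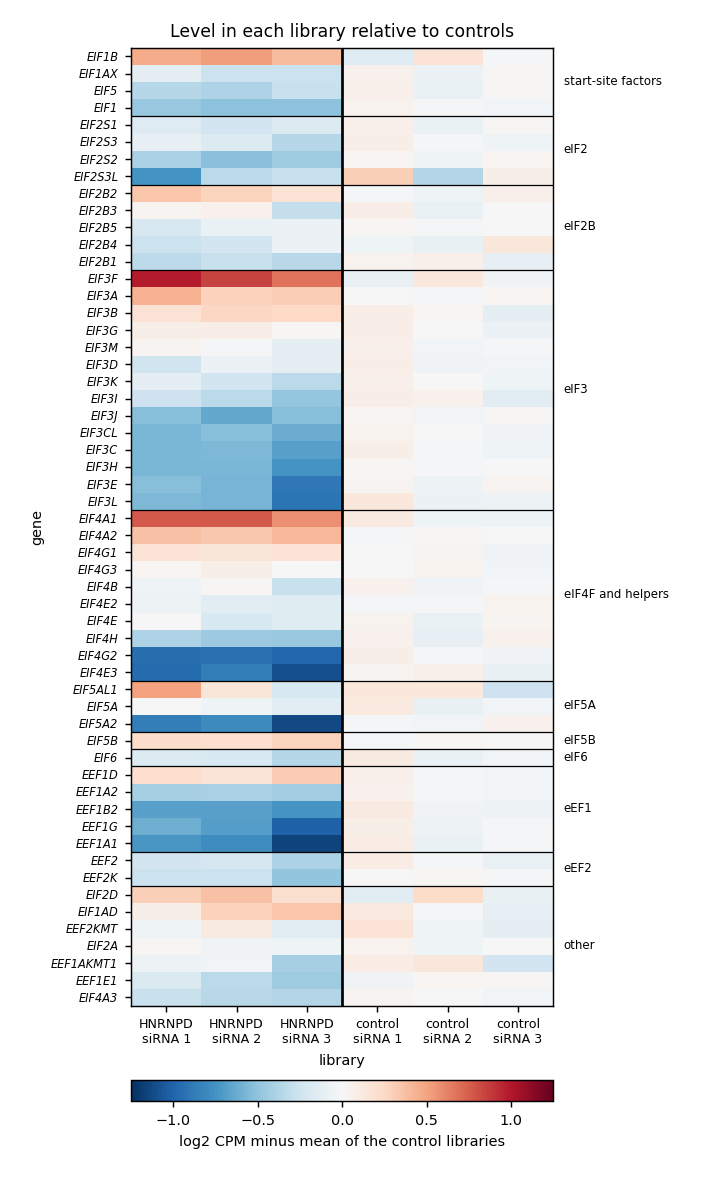
Log2 CPM of the 56 tested factors in each library minus the mean of the control libraries, with HNRNPD siRNA libraries on the left, control libraries on the right and genes grouped by complex. EIF4G2, EIF4E3, EIF5A2 and EEF1A1 are blue in all 3 HNRNPD siRNA libraries. In HNRNPD siRNA replicate 3, 30 factors had their lowest level of all 6 libraries. The same share over all tested genes was not computed, so that count may describe the library and not these factors.

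Among the late initiation factors EIF5B was higher and EIF6 lower, and of the eIF5A paralogs only EIF5A2 was called. EIF5B, the GTPase that joins the ribosomal subunits, had 943, 936 and 983 CPM in HNRNPD siRNA libraries, against 800.0, 820.4 and 809 CPM in control libraries (log2 fold change 0.24, SE 0.06, edgeR adjusted p = 0.00162). EIF6, which keeps large subunits from joining too early, had 13.1, 12.9 and 11.5 CPM after HNRNPD siRNA and 15.9, 13.9 and 14.4 CPM in controls (log2 fold change -0.24, SE 0.09, edgeR adjusted p = 0.0332). That call was lost without control replicate 1 (edgeR adjusted p = 0.143) or HNRNPD siRNA replicate 3 (0.0829), and over 17 alternatives the p ran from 0.0251 to 0.143. EIF5A, the hypusine-modified factor that helps ribosomes over stalling sequences, had 144, 139 and 130.4 CPM after HNRNPD siRNA and 156, 135 and 141 CPM in controls. Its groups overlapped (log2 fold change -0.07, SE 0.07, edgeR adjusted p = 0.414). EIF5A2, its rarer paralog, had 4.01, 4.22 and 3.35 CPM after HNRNPD siRNA, against 7.28, 7.19 and 7.65 CPM in controls (log2 fold change -0.93, SE 0.13, edgeR adjusted p = 5.35e-06). EIF5AL1, a copy of EIF5A, stayed under 1 CPM and was not called.

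Of the 7 remaining factors, 2 were called higher, 2 lower and 3 neither. The 28.6% called each way is near the 28.4% higher and 27.8% lower of all tested genes. EIF2D, which can deliver tRNA without eIF2, had 23.7, 24.9 and 22.1 CPM in HNRNPD siRNA libraries and 17.4, 22.6 and 18.1 CPM in control libraries, where control replicate 2 overlaps (log2 fold change 0.28, SE 0.09, edgeR adjusted p = 0.0158). The call was lost without control replicate 1 or 3 (edgeR adjusted p = 0.116 and 0.0977) or HNRNPD siRNA replicate 2 (0.0701), with 0.00174 the lowest p of 17 alternatives. EIF2A, another eIF2-independent factor, had 53.3, 51.2 and 50.8 CPM after HNRNPD siRNA and 54.5, 51 and 53.1 CPM in controls, and was not called (edgeR adjusted p = 0.698). EIF1AD was called higher (log2 fold change 0.24, SE 0.09). That call was lost without HNRNPD siRNA replicate 2 or 3, or control replicate 2 or 3, at edgeR adjusted p of 0.0955, 0.0954, 0.102 and 0.167, with 0.00886 the lowest p of 17 alternatives. EEF1E1, a scaffold protein of the aminoacyl-tRNA synthetase complex, was lower (-0.32, SE 0.10). The methyltransferase genes EEF1AKMT1 and EEF2KMT were not called.

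Ratios between paralogs were compared within each library, where scaling has no part. In 6 of the 7 pairs the HNRNPD siRNA libraries did not overlap the control libraries, though narrowly for EIF4A1 over EIF4A2. There the log2 ratio was -0.03 in HNRNPD siRNA replicate 3 and -0.05 in control replicate 1. The share of separate pairs among other genes was not computed. Of single genes tested, 31.7% were separate and higher and 30.9% separate and lower. The ratio of EIF1 to EIF1B had a mean log2 of 3.16 ± 0.06 after HNRNPD siRNA and 4.13 ± 0.20 in controls (SD, n = 3 each). EIF5A over EIF5A2 was 5.16 ± 0.12 after HNRNPD siRNA, against 4.29 ± 0.12 in controls, and EIF4E over EIF4E3 was 3.96 ± 0.16, against 3.09 ± 0.13. The remaining separate pairs differed by -0.47 (EEF1A1 over EEF1A2), 0.33 (EIF4A1 over EIF4A2) and 0.13 (EIF4G1 over EIF4G3) on the log2 scale. Each of these 6 gave p = 0.1 in an exact two-sided permutation test, the smallest that 3 against 3 libraries allow, and 0.117 after Benjamini-Hochberg adjustment over 7 pairs. EIF4E over EIF4E2 was -1.22 ± 0.06 after HNRNPD siRNA and -1.21 ± 0.06 in controls (exact p = 0.8).

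**Figure D5:**
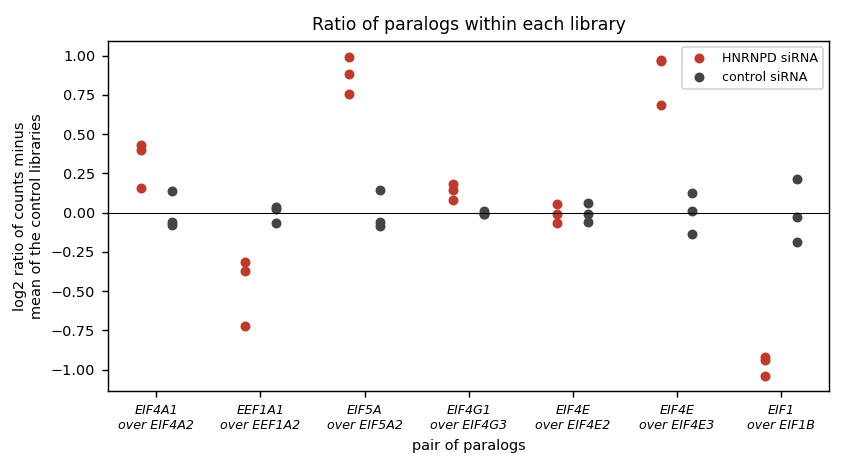
Log2 ratio of the counts of 2 paralogs in each library minus the mean of the control libraries, for 7 pairs, with HNRNPD siRNA libraries in red and control libraries in grey. The red points lie apart from the grey ones in 6 pairs, from -0.97 on average for EIF1 over EIF1B to 0.88 for EIF5A over EIF5A2. For EIF4A1 over EIF4A2 the gap is narrow. Before the control mean is taken off, its nearest ratios are -0.03 (HNRNPD siRNA replicate 3) and -0.05 (control replicate 1). Red and grey points overlap for EIF4E over EIF4E2.

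The regulators and partners of these factors moved over a wider range. Of 30 genes for regulation, termination and recycling, 8 were higher (26.7%) and 14 lower (46.7%), beside 28.4% and 27.8% of all tested genes. Their median on the log2 scale was -0.10. EIF2AK2, the RNA-activated kinase PKR that phosphorylates eIF2 alpha and is induced by interferon, had 585, 505 and 577 CPM in HNRNPD siRNA libraries and 103, 102 and 103 CPM in control libraries (log2 fold change 2.44, SE 0.07, edgeR adjusted p = 4.09e-15). EIF4EBP1, the repressor that competes with eIF4G for eIF4E, had 8.33, 7.4 and 8.32 CPM after HNRNPD siRNA and 48.8, 47 and 42.4 CPM in controls (log2 fold change -2.52, SE 0.08, edgeR adjusted p = 5.13e-14). DHX29, a helicase that helps the small subunit through structured leaders, had 59.2 CPM after HNRNPD siRNA and 92.3 CPM in controls on average (log2 fold change -0.64, SE 0.06, edgeR adjusted p = 4.3e-08).

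PPP1R15A and LARP1 were chosen for mention after their values were seen. PPP1R15A, or GADD34, which directs a phosphatase to eIF2 alpha, had 689, 887 and 1632 CPM after HNRNPD siRNA, against 201, 241 and 217 CPM in controls. Its HNRNPD siRNA libraries were uneven, with replicate 3 the highest (log2 fold change 2.28, SE 0.39, edgeR adjusted p = 0.00795). LARP1, which binds TOP mRNAs, had 371, 369 and 367 CPM after HNRNPD siRNA and 255, 264 and 253 CPM in controls (log2 fold change 0.52, SE 0.06, edgeR adjusted p = 2.16e-07). Among 10 mitochondrial translation factors, 2 were higher (20%) and 3 lower (30%), shares near those of all tested genes, with a median of 0.04. The initiation factor MTIF2 and the release factor MTRF1 rose by log2 fold changes of 0.60 (SE 0.07) and 0.70 (SE 0.12), and the elongation factor GFM1 had -0.31 (SE 0.07).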

How the data were processed

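The authors deposited 1 table of whole-number read counts per gene with gene positions and lengths. The submitters' processing notes name Bowtie 0.12.2, and give GRCh38 and mm8 as builds without saying for what; positions of 57 of 58 genes looked up by name overlapped GENCODE 29 (GRCh38). The counting program, and whether it used strand, is not given here. Counts over bases shared between rows are therefore uncertain, and 16 factors share at least 10% of their exonic bases. Beside those marked above, the called ones are EEF1E1 (18.7%), EEF1B2 (17.4%), EIF6 (17.3%) and EIF5B (10.8%). Intervals from counts cover counting error only.

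Counts were tested across all 20465 genes passing filterByExpr with edgeR 4.0.16 (R 4.3.3): TMM, robust quasi-likelihood test, group as the only term, Benjamini-Hochberg adjustment. SEs are the log2 fold change over the root of F, and CPM use TMM-scaled totals. Alternatives used DESeq2 1.42.0, limma 3.58.1 and other settings. No replicates were close enough to be 1 library (chi-square per degree of freedom 6.63 to 27.7).

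The members and lists were chosen with earlier results of these data known. Values of every library are given for HNRNPD, the 6 called factors that rose most, the 6 that fell most, the most abundant of each complex and the paralog pairs; from each related list the 3 genes with the smallest p are named. Further values were added for context. 1 marker gene is not reported here.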

Additional observations from a re-analysis of the deposited data

How the results depend on the processing

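With each library left out in turn, 8 to 12 factors were called higher and 26 to 30 lower, with 8 higher without control replicate 3; the other 11 alternatives gave 11 to 12 and 28 to 30. HNRNPD kept its call with log2 fold changes of -2.53 to -2.46. The numbers of the libraries do not pair them by the labels, and same-numbered libraries deviated together only weakly (correlations of 0.026, 0.022 and 0.014); with the replicate block, 12 factors were higher and 29 lower. For single factors, 915 of 949 values kept direction and call, 24 lost the call, 5 gained it and 5 reversed. The reversals were of uncalled factors: without HNRNPD siRNA replicate 1, EIF5AL1 was at -0.04 (range over left-out libraries -0.04 to 0.36); without HNRNPD siRNA replicate 3, EIF2B3 was at 0.04 (-0.12 to 0.04), EIF3M at 0.00 (-0.08 to 0.00) and EEF2KMT at 0.02, with 0.06 for EEF2KMT without control replicate 1 (-0.10 to 0.06). EIF6 also lost its call with library totals only (edgeR adjusted p = 0.059) and in DESeq2 (0.0645), EIF1AD in DESeq2 (0.0992), and EIF2B4 at 1 CPM or more in 3 libraries (0.051). EIF3D gained one without a filter and without HNRNPD siRNA replicate 2 or 3, EIF4E without replicate 1 and EIF2B5 without replicate 3 of that group. The causes were not tested. Alternatives for complex medians and paralog ratios were chosen after seeing the data. With at least 1 CPM in 3 libraries, which leaves fewer genes, the medians were -0.18 for eIF2 and -0.47 for eIF5A, and with counts divided by 2 that of eIF5A was -0.49. Leaving out each library gave medians of -0.26 to -0.19 over all factors, -0.37 to -0.26 for eIF2, -0.14 to -0.06 for eIF4F and helpers, -0.12 to -0.01 for eIF5A and -0.10 to -0.02 for the other factors, and -0.03 to 0.03 for EIF4E over EIF4E2. Among factors sharing under 10% of exonic bases, 7 were higher and 23 lower of 40 (median -0.22); among those sharing more, 5 were higher and 6 lower of 16 (median -0.08), beside 28.4% higher and 27.8% lower of all tested genes. Factors under 1 CPM cannot be judged at this depth.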
